A study of Mus musculus with 2 samples.

Results

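Ddx4, Ddx25 and Dazl encode RNA-binding proteins of male germ cells, and their transcripts were read on 2 arrays of day 10 mouse testis, 1 of Mili+/- heterozygotes and 1 of Mili-/- homozygotes. Every probe set whose platform annotation names exactly 1 gene, and that gene one of these 3, was taken. They were 5 of the 12422 non-control probe sets, 1 for Ddx4, 2 for Ddx25 and 2 for Dazl, and stood for 3 of the 8251 genes with such a probe set. No probe set shared between several genes listed any of the 3.

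Mili is the gene now named Piwil2, and its protein MILI is a germline member of the Piwi family that binds piRNAs. Both groups carry the mutant allele, on 1 chromosome in Mili+/- and on both in Mili-/-, and no wild-type array was analysed. Day 10 was chosen by the submitters because dying cells appear in the mutant testis from day 11, and per the labels germ cells of the mutant stop in early meiotic prophase. The labels name neither the strain nor the construction of the allele, nor the number of mice behind each array. Piwil2 itself had no annotated probe set, and the genotype of each array was therefore not checked against the targeted transcript.

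DDX4, the mouse Vasa protein, is a DEAD-box RNA helicase of the nuage, the germ cell granule in which piRNAs are made, and it binds MILI. DDX25, also called gonadotropin-regulated testicular RNA helicase, belongs to the same helicase family, is found in germ cells and in Leydig cells, and is known for the export and storage of mRNAs that spermatids translate late. DAZL binds the untranslated ends of germ cell mRNAs and promotes their translation, and is needed for germ cells to enter and proceed through meiosis.

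The promoters of Ddx25 and Dazl are shown because both probe sets of each gene lay below the median of all probe sets in the mutant comparison. Each is the 250 bases before the RefSeq start, in GRCm38.p6, on the minus strand and written 5′ to 3′, with CG dinucleotides in capitals. The Ddx25 window is chr9:35558471-35558720 and the Dazl window chr17:50293621-50293870.
Ddx25: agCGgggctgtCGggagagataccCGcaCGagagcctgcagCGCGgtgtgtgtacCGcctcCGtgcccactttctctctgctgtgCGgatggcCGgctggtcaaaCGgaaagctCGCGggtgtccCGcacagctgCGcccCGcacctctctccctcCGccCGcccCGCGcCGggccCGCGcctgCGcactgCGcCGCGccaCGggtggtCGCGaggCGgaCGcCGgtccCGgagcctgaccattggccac
Dazl: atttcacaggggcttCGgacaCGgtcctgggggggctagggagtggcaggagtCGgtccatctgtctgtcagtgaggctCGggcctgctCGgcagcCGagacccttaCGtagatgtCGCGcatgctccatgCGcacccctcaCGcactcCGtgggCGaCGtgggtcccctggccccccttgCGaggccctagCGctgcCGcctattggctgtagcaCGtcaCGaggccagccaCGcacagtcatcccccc

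The Ddx25 window held 34 CG dinucleotides and the Dazl window 20. The Ddx4 window, whose letters are not printed because the annotated gene reaches past it, held 31. Among 5365 windows of genes with a probe set past the brightness filter the median was 16, and 93.3% of these windows had fewer CG than Ddx25, 89.5% fewer than Ddx4 and 62.6% fewer than Dazl. All 3 windows thus held more CG than the median. The motif CCAAT, searched on both strands, was present in all 3 windows and in 35.2% of the windows of those genes. The E-box CACGTG was present in the Ddx4 window and in 9.4% of windows, and TCCCGC, the core of E2F sites, in those of Ddx4 and Ddx25 and in 31.1%. TATAAA was in none of the 3 and in 6.6% of windows. These matches describe letters only, and binding at them was not tested.

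Deposited signals are linear. For the differences they were converted to log2 values, from which the array's own median was subtracted. Every difference is Mili-/- minus Mili+/- after that centring unless stated otherwise. Each genotype had 1 array, so no value has a replicate and nothing could be tested. The 1 available measure of error was the disagreement between probe sets of one gene, with an SD of 0.31 on the log2 scale over 720 genes, which covers neither animals nor hybridisations. All 5 probe sets passed the brightness filter (signal at or above the array's median, 38.5 in Mili+/- and 41.55 in Mili-/-), and did so on both arrays. The comparison is with all 6484 probe sets past that filter. Their median difference was -0.12 and the central 95% lay between -0.71 and 0.63, so a value near -0.12 is the middle of the probe sets past the filter. Over all 12422 probe sets, dim ones included, the median was -0.00036, and all 5 probe sets of the 3 genes lay below it.

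Ddx4 had nearly the same signal on both arrays. Its probe set (94162_at) read 245.6 in Mili+/- and 243.9 in Mili-/-, so the mutant value was 99.3% of the heterozygous one. The centred difference of -0.12 coincided with the median of the probe sets past the filter, with as many below it as above, and lay below the median taken without the filter. Under 4 scalings it kept within 0.03 of the median of those past the filter, and its own sign turned (0.02 after quantile normalization and 0.02 after loess). Centring shifts all probe sets alike, so only quantile normalization and loess could move its distance from that median.

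Ddx25 was lower in the Mili-/- array by both of its probe sets. The first (161041_at) read 134.3 in Mili+/- and 95.6 in Mili-/-, a 1.52-fold lower level after centring (log2 difference -0.60). The second (92678_at) read 125 and 82.5, 1.64-fold lower (-0.71). Each thus read lower in the mutant, and by a like amount. As deposited, without centring, the mutant signals were 71.2% and 66.0% of the heterozygous ones. Among all probe sets 4.9% lay lower than the first and 2.5% lower than the second. In its decile of probe sets by brightness the central 95% of differences ran from -0.71 to 0.51, so the first lay inside this range and the second at its lower edge.

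**Figure D1:**
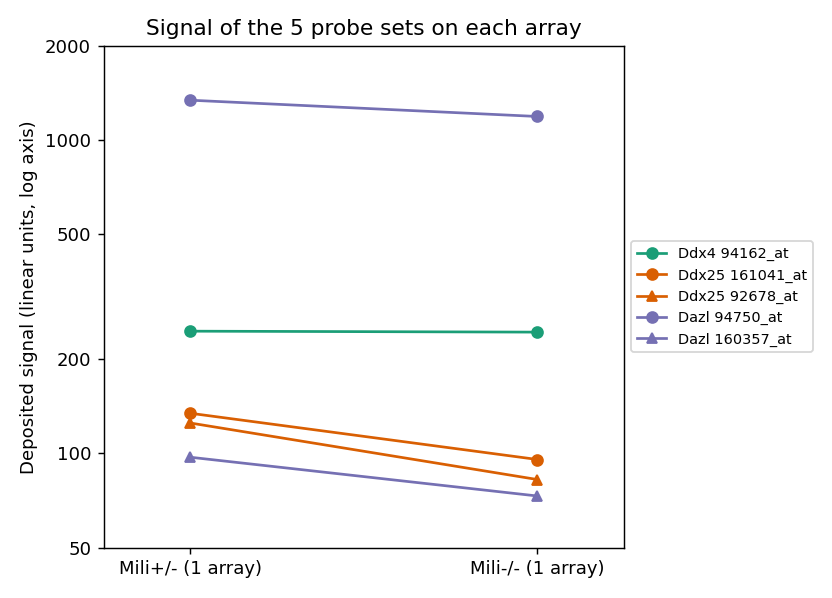
Deposited signal (linear units on a log axis) of the 5 probe sets on the Mili+/- and the Mili-/- array, 1 array each, with lines joining the 2 values of a probe set. The Ddx4 line is flat (245.6 and 243.9), while both Ddx25 lines and both Dazl lines run down to the mutant array.

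Dazl signals were also lower in Mili-/-, by an amount that depended on the probe set. The brighter probe set (94750_at) read 1342 and 1190.6, or 88.7% of the heterozygous signal, with a difference of -0.28 (1.22-fold lower). The dimmer one (160357_at) read 97.2 and 73.1, or 75.2%, with a difference of -0.52 (1.44-fold lower). In their brightness deciles the central 95% of differences ran from -0.44 to 0.26 and from -0.68 to 0.52, and both values lay inside. Of all probe sets, 26.9% lay lower than the first and 7.4% lower than the second. The brighter Dazl probe set thus lay well within the bulk of the array and the dimmer one towards its lower tail.

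None of the 5 probe sets reached a 2-fold difference, where 0.648% of all 6484 probe sets were at least 2-fold lower and 0.509% at least 2-fold higher. Both Ddx25 probe sets were at least 1.5-fold lower and none of the other 3 was, against 5.29% of all probe sets (343). The share of all probe sets at least 1.5-fold higher was 2.98%, and no member was among them. The count of 2 rests on the scaling. As deposited, only 92678_at was 1.5-fold lower (-0.60, beside -0.49 for 161041_at), and neither was after quantile normalization (-0.58 and -0.46) or loess (-0.58 and -0.47). With these 2 scalings and as deposited, the median of the probe sets past the filter lay near 0. Relative to that median Ddx25 stood between -0.46 and -0.48 and between -0.57 and -0.59 over all scalings and floors tried. Centring shifts all probe sets alike and the Ddx25 signals lay above the floors, so only quantile normalization and loess could move this distance. Both left it within these ranges.

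**Figure D2:**
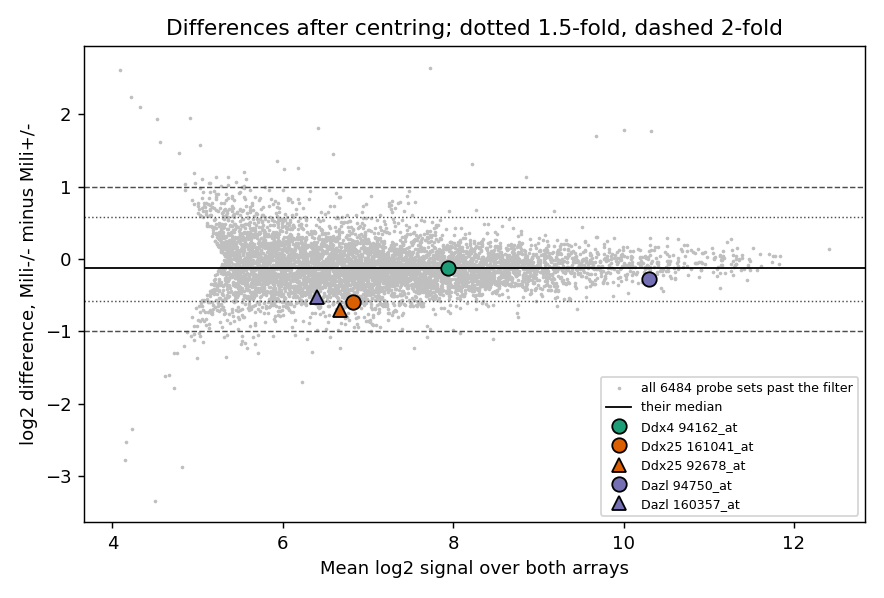
log2 difference (Mili-/- minus Mili+/-, centred) against mean log2 signal for all 6484 probe sets past the filter (grey) and the 5 probe sets of Ddx4, Ddx25 and Dazl (coloured). The solid line is their median (-0.12), on which Ddx4 sits, and the 2 Ddx25 points lie just under the dotted 1.5-fold line.

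**Figure D3:**
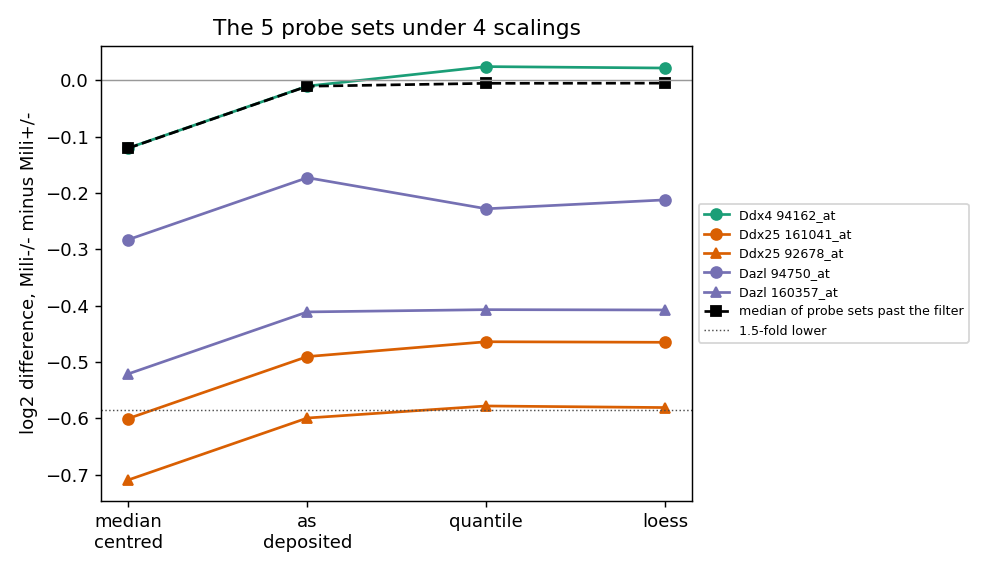
log2 difference of the 5 probe sets after median centring, as deposited, after quantile normalization and after loess, with the median of the probe sets past the filter as a dashed line. The order of the 5 is the same under each scaling, Ddx4 stays by the dashed line, and both Ddx25 probe sets cross the dotted 1.5-fold line.

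The probe sets of one gene agreed closely for Ddx25. The gap between its 2 log2 differences was 0.11, and 22.0% of the 637 genes with exactly 2 probe sets past the filter had a smaller gap. For Dazl the gap was 0.24, and 46.3% of these genes had a smaller one. The median gap was 0.26 and the 90th percentile 0.70. Of the 637 genes, 3 (0.471%) were at least 1.5-fold lower by both probe sets after centring. These were Ddx25, the cyclin gene Ccnd1 (-0.60 and -0.65) and Suz12, which encodes a subunit of Polycomb complex PRC2 (-0.69 and -0.99). The latter 2 were named after their values were seen. The dimmer Suz12 probe set (-0.69) reached the filter only in Mili+/-, a selection that leans to lower values. The count of 3 includes this gene, and it rests on the centring. As deposited, none of the 3 genes was 1.5-fold lower by both probe sets (-0.49 for 161041_at of Ddx25). That Ddx25 probe set also fell short after quantile normalization (-0.46) and loess (-0.47). The 2 probe sets of a gene share the RNA sample and the hybridisation, so their agreement is no replicate of the genotype.

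**Figure D4:**
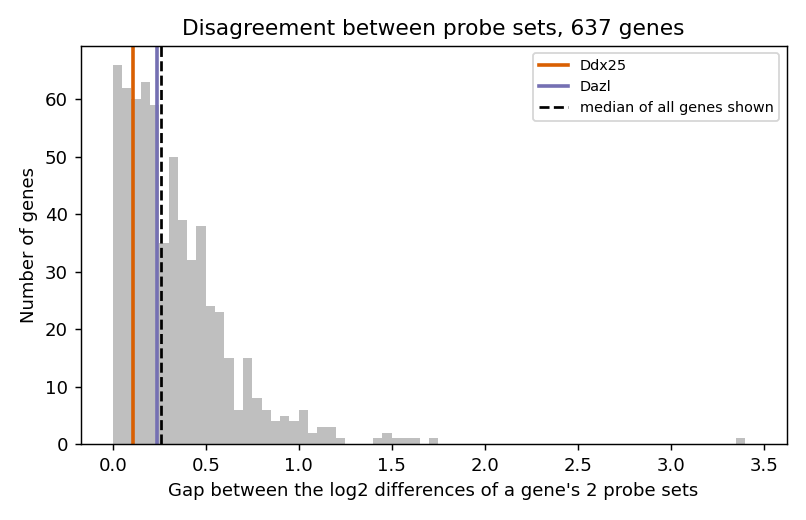
Histogram of the gap between the log2 differences of the 2 probe sets of a gene, over 637 genes, with Ddx25 (0.11), Dazl (0.24) and the median (0.26, dashed) marked. Both genes lie on the low side of the median gap.

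The 3 genes were also set against each other. Averaged over probe sets, the difference was -0.12 for Ddx4, -0.40 for Dazl and -0.65 for Ddx25. Ddx25 lay below Ddx4 by 0.48 and 0.59, where the SD of 1 such difference between probe sets would be 0.44. Dazl lay below Ddx4 by 0.16 and 0.40, within that SD, and Ddx25 below Dazl by 0.08 to 0.43 over the 4 pairs of probe sets. Neighbours in the order Ddx25, Dazl, Ddx4 were therefore not set apart beyond the disagreement between probe sets, and the ends of the order were set apart by slightly more than 1 SD.

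Other germ cell genes were mostly lower as well. Of 45 further germ cell markers, 23 were measured and 13 passed the filter. All 13 lay below the median of all genes (-0.13), and their own median was -0.33. Of these, 3 (Sall4, Stra8 and Kit) were at least 1.5-fold lower and none at least 1.5-fold higher, beside 5.04% and 2.47% of the 5095 genes past the filter. As deposited, without centring, Kit fell short of 1.5-fold (-0.51). None of the 13 reached 2-fold, which 0.53% of the 5095 genes did in the lower and 0.314% in the higher direction. The lowest were Sall4, a transcription factor of undifferentiated spermatogonia (57.4 and 34.7, -0.84), and Stra8, which is induced at meiotic entry (303 and 198, -0.72). Kit, the receptor that marks differentiating spermatogonia, followed (205 and 144, -0.62), then Zbtb16, a factor of spermatogonial stem cells (219.5 and 164, -0.53), whose probe set carries the suffix _g and whose other probe set was dim (15.5 and 16.4). Sall4 and Id4 (46.5 and 40, -0.33) reached the filter only in Mili+/-, a selection that leans to lower values, and Id4 is the middle gene that gives the median. Restricted to genes bright on both arrays, the median stood at -0.19 relative to that of all genes, against -0.20 with the main filter.

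Against these 13 genes, Ddx4 was higher than every one, at 0.21 above their median. The brighter Dazl probe set stood at 0.04 above their median, with 10 of the 13 lower, and the dimmer at -0.19, with 4 lower. The Ddx25 probe sets stood at -0.27 and -0.38, with 3 and 2 of the 13 lower. In RNA of whole testis, fewer germ cells and less RNA per germ cell cannot be told apart. Summed over the 23 measured markers, the signal was 3167 in Mili+/- and 2622 in Mili-/- (82.8%), and Sycp3 and Ret lay under the floor on both arrays. The Mili-/- signal of Ddx4 was 99.3% of the Mili+/- signal beside this lower sum.

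Each of the somatic marker lists had a higher median than the germ cell list, also when restricted to genes bright on both arrays. Adipoq, Fabp4 and Car3 (adipocyte), Alas2 and Rhd (erythroid), Cx3cr1 (macrophage) and Pecam1 (endothelial) reached the filter only in Mili-/-. Such a selection leans to higher values. Inhba (Sertoli) and Star (Leydig) reached it only in Mili+/-. All 20 measured Sertoli cell markers passed the filter, with a median of 0.06, and 15 of them lay above the median of all genes. Their summed signal was 9938 in Mili+/- and 11407 in Mili-/- (115%). Of the 10 Leydig cell markers, 9 were measured and 5 passed, with a median of -0.23. The 9 summed to 1424 and 1661 (117%), with Nr5a1, which Sertoli cells also express, at 602 and 883. The higher sum rests on Nr5a1, and the other measured Leydig markers together summed to less in Mili-/- than in Mili+/-. That lower sum rests on Cyp17a1 (283 and 237) and Hsd3b1 (269 and 227), with Star also lower. By deposited signal Cyp11a1 (169.9 and 175.5) and the dim Hsd3b6, Insl3, Hsd17b3 and Hsd11b1 read higher in Mili-/-, so these markers had no common direction. Both Ddx25 probe sets lay below all 5 Leydig genes past the filter. The 10 peritubular myoid markers summed to 4111 and 4358 (106%), the 9 measured adipocyte markers to 364.5 and 654 (179%) and the 8 measured erythroid markers to 1577 and 2117 (134%). Most of both erythroid sums came from Hba-a1 (1397 and 1828). The 12 macrophage markers summed to 785 and 913 (116%) and the 10 endothelial markers to 779 and 795 (102%). Cidec, Epb42 and Adgre1 lay under the floor on both arrays. The part of these marker differences in the values of Ddx25 and Dazl was not tested.

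**Figure D5:**
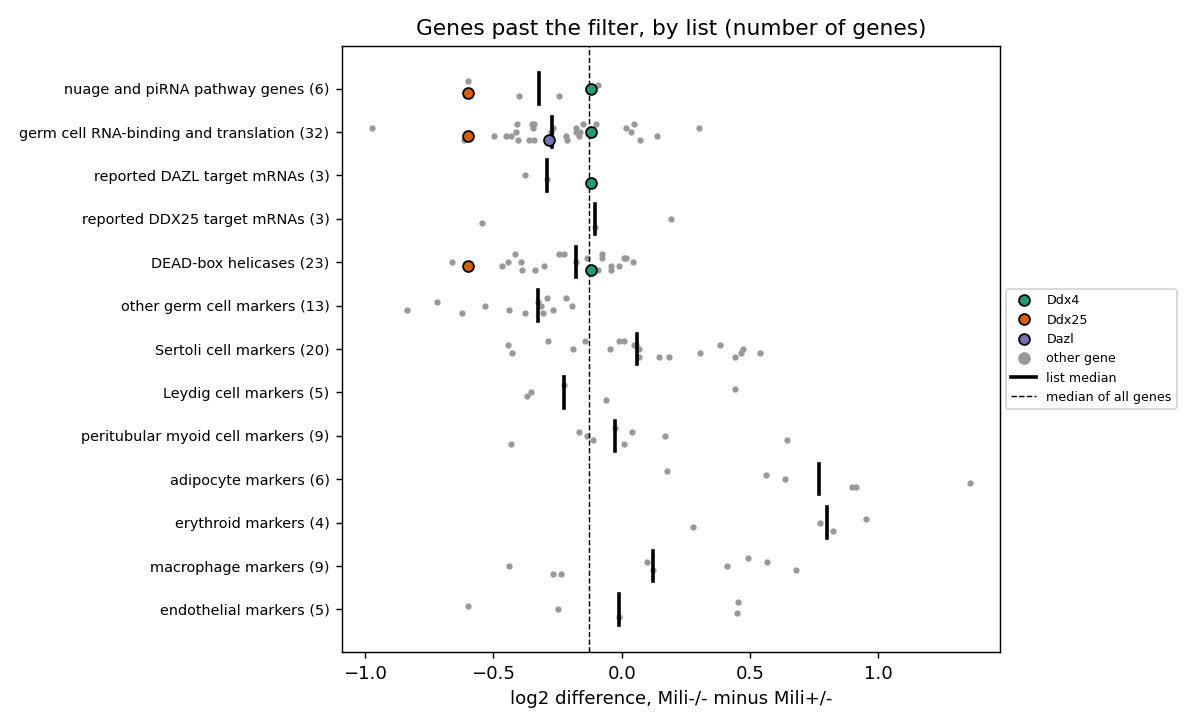
log2 difference (Mili-/- minus Mili+/-) of every gene past the filter in each list, with the list median (bar), the median of all genes (dashed) and Ddx4, Ddx25 and Dazl in colour. All 13 other germ cell markers lie left of the dashed line, and Ddx25 lies near the low end of the helicase list.

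Of 42 DEAD-box helicase genes, 26 were measured and 23 passed the filter. Their median was -0.18, close to that of all genes (-0.13), with 13 below it and 10 above. Of the 23, 2 were at least 1.5-fold lower and none higher, beside 5.04% and 2.47% of all genes, so with 23 genes the count is near the background. These were Ddx46, a splicing helicase gene (44.5 and 30.4, -0.66), bright enough only in Mili+/-, and Ddx25. As deposited, without centring, neither was 1.5-fold lower (-0.55 and -0.49). By its brighter probe set Ddx25 was the second lowest of the 23, and Ddx4 had 13 below it. The next were Ddx51 (119 and 92.9, -0.47) and Ddx27 (52.6 and 41.7, -0.45), ribosome assembly helicases read by probe sets with the suffixes _i and _r, which mark incomplete or relaxed probe selection. A dim second probe set of Ddx27 went the other way (28.3 and 37.0, 0.28). Ddx4 and Ddx25, both helicases of germ cells, thus stood at different places in the family.

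Among 58 genes for RNA-binding proteins and translational regulators of germ cells, 39 were measured and 32 passed. Their median was -0.27 (24 below and 8 above the median of all genes), 3 were at least 1.5-fold lower, Ddx25 among them, and none was as much higher, beside 5.04% and 2.47% of all genes, a count that is again near the background. Without Ddx4, Ddx25 and Dazl the median of the other 29 was -0.27. Grsf1, which encodes a G-rich RNA-binding factor, was lowest (286 and 157, -0.97), followed by the ELAV family gene Elavl2 (65.5 and 46.2, -0.61) and Ddx25. As deposited, without centring, Elavl2 (-0.50) and Ddx25 (-0.49) fell short of 1.5-fold. The mRNA decay factor gene Zfp36l2 stood at -0.50 (368 and 281). Another of its probe sets, with the suffix _r and bright enough only in Mili-/-, went in the other direction (30.1 and 51.9, 0.68). Many genes of this list are expressed in all cells of the testis, so it is not a measure of germ cells.

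Of 29 nuage and piRNA pathway genes only 7 were measured, and 6 passed. Besides Ddx25 and Ddx4 these were the DNA methyltransferase gene Dnmt3a (50.9 and 36.3, -0.60), bright enough only in Mili+/-, the chaperone gene Hsp90aa1 (1534 and 1254, -0.40), the Argonaute gene Ago2 (111 and 101, -0.25) and the helicase gene Ddx6 (-0.09). This Ddx6 probe set carries the suffix _s, and its other probe sets past the filter gave 0.02 and -0.35. The median was -0.32, and 2 of the 6 (Ddx25 and Dnmt3a) were at least 1.5-fold lower, beside 5.04% of all genes. Of these 2, one is a gene studied here and the other owes its place to the Mili+/- array, so the count adds nothing on the pathway. As deposited, without centring, neither reached 1.5-fold (-0.49 for each). Dicer1 was dim (21.8 and 12.6). Most of the pathway, Piwil2 included, has no value here.

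Transcripts reported as bound by DAZL were read poorly, with 3 of 5 past the filter and a median of -0.29. Tex19.1, a germ cell gene that restrains retroelements, had 462 and 384 (-0.38). Sycp1, which encodes the transverse filament of the synaptonemal complex, had 185 and 163 (-0.29), and the third was Ddx4 itself (-0.12). Sycp3 (1.1 and 0.6) lay under the floor on both arrays and Crisp2 (12.3 and 6.1) was dim, and neither gave a usable difference. DAZL acts on translation, which these arrays do not measure.

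Of 8 transcripts tied to DDX25, 7 were measured, and most belong to spermatids, which day 10 testes do not yet hold. The protamine genes Prm1 (2.8 and 3.1) and Prm2 (1.0 and 2.5) and the sperm glycolytic kinase gene Pgk2 (0.9 and 1.0) lay under the floor on both arrays, and the transition protein gene Tnp2 was dim (13.5 and 17.7). Those past the filter were the chromatin protein gene Hmgb2 (212 and 157, -0.54), the angiotensin-converting enzyme gene Ace (47.9 and 48.1, -0.10) and Tnp1 (56.4 and 69.5, 0.19). The probe sets of Hmgb2 and Tnp1 carry the suffix _r, which marks relaxed probe selection. A second Tnp1 probe set without a suffix lay under the floor on both arrays (1.1 and 1.6), and further probe sets of Ace were under the floor (2.4 and 3.0) or dim (11.5 and 11.3). With 3 values from -0.54 to 0.19, the group had no common direction relative to all genes.

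The genes closest to each of the 3 were sought among 46 other genes of the germ cell, RNA-binding and nuage lists, by the distance between log2 differences over these 2 arrays and with the brightest probe set of each. Nearest to Ddx4 were Dazap2 (distance 0.02), Ddx6 (0.03) and Zfp36 (0.03). Another Ddx6 probe set past the filter, without a suffix, gave a difference of -0.35 (133 and 113). Nearest to Ddx25 were Dnmt3a (0.0027), Elavl2 (0.01) and Kit (0.02), and nearest to Dazl were Fxr1 (0.01), Sycp1 (0.01) and Ybx3 (0.01). Dnmt3a and Fxr1 reached the filter only in Mili+/-. The dimmer Dazl probe set (-0.52) was not used here, and its gap of 0.24 to the brighter one is larger than the Dazl distances given. With 2 arrays such likeness rests on 1 number for each gene.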

How the data were processed

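Polyadenylated RNA of day 10 testes was read on 2 single-colour Affymetrix mouse arrays, 1 per genotype by the sample titles. The authors' deposited table gives a linear intensity for each probe set and array. How it was made (tool, background correction, detection calls) is not given in the sources used. With 2% trimmed at each end the array means were alike (100.05 and 100.05), so the intensities appear scaled to a common level.

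Of 12488 probe sets, 66 controls were left out. Of the other 12422, the platform annotation gave 10833 1 gene symbol, 396 several and 1193 none listed. Symbols were updated through Entrez IDs in RefSeq's GRCm38.p6 table (10817 matched). Signals were floored at each array's 20th percentile (6.3 and 7.0), converted to log2 and centred on the array median, which removed a shift of 0.11. A probe set was compared if its brighter array reached that array's median. A gene in a list took its brightest probe set, leaving 5095 genes. Fold thresholds were 2 and, as an alternative, 1.5 and 3. Suffixes _s, _f, _i, _g and _r were read as marks of shared sequence or of incomplete or relaxed probe selection. Promoter windows are from RefSeq.

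The members, lists and thresholds were chosen with earlier results of these data known. Named genes were every probe set of the 3 genes, the 4 members with the largest difference in each RNA and germ cell list, all measured DAZL and DDX25 targets, and the 3 nearest genes. From the other cell type lists, summed signals were given. Other genes named were picked with their values in view. Scripts were tested on simulated data. Alternatives were scaling, floor, filter, fold threshold and choice of probe sets. The number of arrays limits the precision. Python 3.11.15, NumPy 2.4.6, pandas 2.3.3, SciPy 1.17.1, statsmodels 0.14.6 (loess span 0.4) and Matplotlib 3.10.9 were used.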

Additional observations from a re-analysis of the deposited data

How the results depend on the processing

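With 1 array per genotype, no replicate could be left out. No paired analysis was possible because each genotype had 1 array. The 5 probe set differences moved by less than the SD of 0.31 under every scaling and floor. For the floors this was given in advance, because the 5 signals lay above them. Leaving out the centring moves every difference by the same 0.11, so only quantile normalization and loess could have moved them further. The number of them at least 2-fold different was 0 in each direction throughout, and 2 were lower with the 1.5-fold threshold. Over all probe sets, 42 were 2-fold lower and 33 higher. The split was 26 and 52 as deposited, 37 and 43 after quantile normalization, 35 and 44 after loess, 28 and 25 when the floor was the 40th percentile, 5 and 8 for a filter set at the 75th percentile and 11 and 10 with both arrays past the filter. Without the filter it was 245 and 293, and with the 3-fold threshold 9 and 11. Relative to the median of all genes, the median of the DDX25 targets went from 0.02 to -0.41 under that stricter filter, the Leydig list from -0.10 to 0.43 without the filter, and the erythroid list from 0.92 to 0.29 without the filter and 0.41 with the stricter filter. Each of these filters changes which genes enter. The other germ cell markers kept their side under all 10 settings (-0.28 to -0.19), as did the RNA-binding list (-0.22 to -0.07). The nuage list did so under 9, and stood at 0.01 with the stricter filter. The helicase list also did so under 9, and stood at 0.02 with that filter. Leaving out the centring shifts all genes alike and cannot move any of these list values, and changing the floor left them the same. These settings therefore add nothing to the agreement. The SD between probe sets was 0.21 with the stricter filter and 0.33 without suffixed probe sets.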

Other observations

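Several RNA-binding protein genes of germ cells did not pass the brightness filter, and their signals are given as values only. Ybx2, which encodes a germ cell Y-box protein that stores mRNAs, read 38.0 in Mili+/- and 24.9 in Mili-/-. Adad1, a gene for a double-stranded RNA-binding protein of the testis, read 18.2 and 33.0. The cytoplasmic polyadenylation factor gene Cpeb1 read 3.7 and 10.7, and Papolb, which encodes a testis poly(A) polymerase, read 11.1 and 5.0. Of the neural and stem cell RNA-binding genes, Msi1 read 19.4 and 13.9. Celf1 read 9.2 and 13.4, and Fxr2 10.3 and 6.6. The X-chromosome helicase Ddx3x has a testis copy, D1Pas1, which read 24.4 and 32.4. These signals lay under the array medians of 38.5 and 41.55, where the floor and background weigh most.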
